A study of Rattus norvegicus with 60 samples.

Results

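MicroRNAs (miRs) known from leukocytes and from inflammation were followed in the rat retina after ischemia-reperfusion (IR) injury. They were the array entries for rno-miR-142-3p, rno-miR-142-5p, rno-miR-146a, rno-miR-146b, rno-miR-150 and rno-miR-223, chosen by name as all entries of the miR-142, miR-146, miR-150, miR-155 and miR-223 families other than names ending in an asterisk, 6 of the 350 rat miRs on the array. No entry of the name miR-155 was found among the 350. Male Long Evan’s hooded rats of 250 to 300 g, all given the same anesthesia and the same needle in the anterior chamber of 1 eye, formed 2 treatments. In the IR groups the eye pressure was held at 110 mmHg for 60 min and the retina was taken at once (0 h) or after reperfusion for 2 h, for 24 h, for 48 h or for 7d. In the sham control groups the pressure was not raised and the retina was taken at the same times, and no age is stated for either treatment. Each of the 10 groups held 6 rats with 1 Agilent array per rat, so that 60 arrays of whole retina were compared. Whole retina holds the blood and the vessels of the tissue as well as its neurons and glia, and in such bulk RNA fewer cells of a type and less RNA per cell cannot be told apart.

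MiRs are short RNAs that guide the Argonaute proteins to partly complementary sites in mRNAs, mainly through the seed at their 5′ end. MiR-142 is known as a marker of blood cells of nearly all lineages, miR-223 as a miR of neutrophils and other myeloid cells, and miR-150 as a miR of mature lymphocytes. MiR-146a is known to be induced through NF-κB. MiR-146a and miR-146b are known to dampen Toll-like receptor and interleukin-1 receptor signalling by targeting Irak1 and Traf6. Leukocytes are known to adhere to vessels and to enter the retina after ischemia, which is why these miRs were looked at together.

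The mature sequences show which members share a seed and at which bases they differ. The sequences of the probes were not at hand, so what a probe can tell apart was not assessed. RefSeq sequences (build GRCr8) were matched by name to 5 of the 6 members, where the older array names without an arm were taken as the 5p arm of miR-146a and miR-146b and the 3p arm of miR-223, and rno-miR-150 had no match. Capitals mark the seed (bases 2 to 8).
rno-miR-146a-5p: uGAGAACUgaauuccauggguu
rno-miR-146b-5p: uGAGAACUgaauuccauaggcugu
rno-miR-142-5p: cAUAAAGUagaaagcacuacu
rno-miR-142-3p: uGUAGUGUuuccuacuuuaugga
rno-miR-223-3p: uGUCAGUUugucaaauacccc
The miR-146 pair shares its seed, GAGAACU, whereas the other 3 sequences each have a seed of their own. Counted from the 5′ end of miR-146a-5p, the pair is identical at 20 of 22 positions and differs by G18A and U21C, and miR-146b-5p is listed with 2 further bases at its 3′ end. Both differences lie outside the seed. In GRCr8 the miR-146b-5p sequence lies on chromosome 1 from 255144874 to 255144897 (plus strand) and the miR-146a-5p sequence on chromosome 10 from 28350053 to 28350074 (minus strand). The miR-142-5p and miR-142-3p sequences lie on chromosome 10 from 73055119 to 73055139 and from 73055155 to 73055177, and the miR-223-3p sequence on chromosome X from 65151450 to 65151470 (all plus strand). The array annotation, made on the older build rn4, places the probes of rno-miR-150 on chromosome 1 from 95596097 to 95596113.

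The scanner software summed the background-subtracted fluorescence of a miR's probes into 1 total signal and marked the miR as detected or not. Most members were at or near background in whole retina. rno-miR-146b was detected on 59 of 60 arrays, rno-miR-150 on 23, rno-miR-223 on 16, rno-miR-146a on 1 and both arms of miR-142 on 0. The arrays differed in brightness with treatment. Before scaling, the upper quartile of the 57 miRs that no array failed to detect was 2.09-fold lower in IR at 0 h, 4.44-fold at 24 h, 2.29-fold at 48 h and 5.98-fold at 7d (exact two-sided permutation test, p = 0.0303, 0.00216, 0.00649 and 0.00216, n = 6 per group), and 1.02-fold higher at 2 h (p = 0.894 by the exact test). Signals were scaled to this 75th percentile, raised to a floor of 6.20 signal units (2.63 on the log2 scale) and taken to log2, and unscaled signals are given beside the scaled ones below because they can point in opposite directions. The arrays were scanned on 3 days, with 11, 11 and 8 arrays of each treatment, and lay on 9 slides, of which 0 held both treatments of the same time point.

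**Figure D1:**
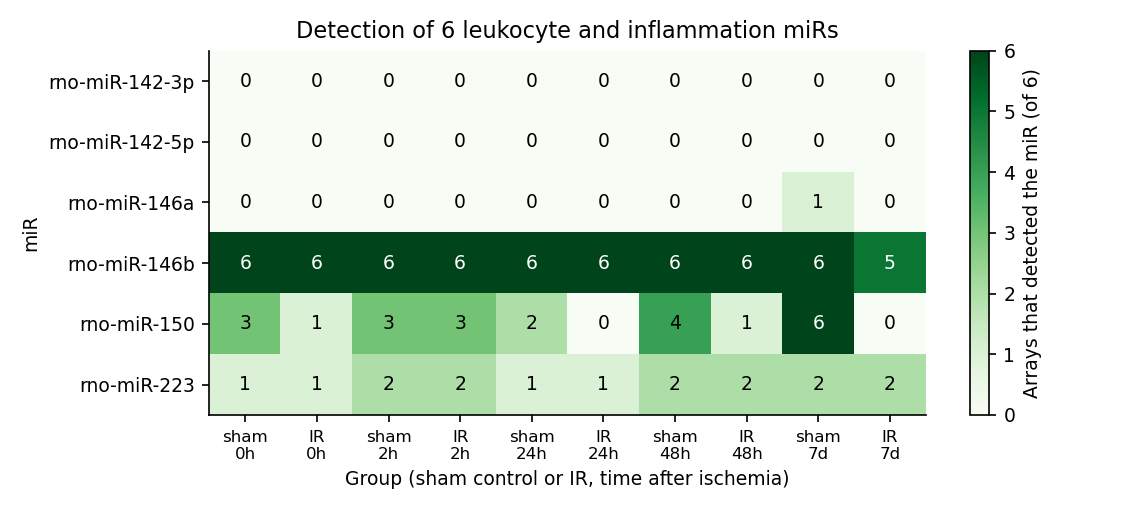
Number of the 6 arrays in each group (horizontal axis, sham control or IR at each time) on which each of the 6 miRs (vertical axis) was detected above background, printed in each cell and shown by color. rno-miR-146b was detected on 59 of 60 arrays and both miR-142 arms on 0, and rno-miR-150 was detected on 6 sham control arrays and 0 IR arrays at 7d.

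One limma fit took the 159 miRs that every array of 1 or more groups had detected. A call needed a change of 2-fold or more together with an adjusted p (Benjamini-Hochberg over the 159) no higher than 0.05. Of the 6 members 2 were tested, rno-miR-146b and rno-miR-150. Neither was called at any of the 5 time points, where 6.92% (0 h), 5.03% (2 h), 18.2% (24 h), 13.8% (48 h) and 18.2% (7d) of the 159 miRs were called. On the adjusted p alone, 0 members passed at 0 h and 2 h, rno-miR-146b passed at 24 h, and both passed at 48 h and 7d. The same criterion was met by 12.6%, 7.55%, 60.4%, 54.7% and 59.7% of all tested miRs at the 5 time points, so that passing it at 24 h or later was common on these arrays. rno-miR-150 had entered the fit only because every sham control array at 7d detected it, so nothing is read from its pass at 7d. In the direction of rno-miR-146b, higher in IR, it was met by 24.5%, 19.5% and 20.1% at 24 h, 48 h and 7d, and in that of rno-miR-150, lower in IR, by 35.2% and 39.6% at 48 h and 7d. On the unadjusted p of limma (under 0.05), rno-miR-150 also passed at 0 h and rno-miR-146b, which was lower in IR, at 2 h, as did 25.2% of the tested miRs at 0 h and 11.9% at 2 h.

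rno-miR-146b, of the pair known to restrain Toll-like receptor signalling, was higher relative to the rest of the miRs in IR at 24 h, 48 h and 7d, whereas its unscaled signal was lower at 24 h and 7d. At 24 h the unscaled total signal ran from 43.6 through a median of 72.5 to 88.3 signal units on the sham control arrays and from 14.3 through 30.9 to 38.7 on the IR arrays. After scaling, the log2 signal ran from 5.16 through 5.36 to 5.67 in sham control and from 6.06 through 6.13 to 6.55 in IR. The groups did not overlap on either scale, with the 6 IR arrays the lower ones before scaling and the higher ones after it. Before scaling, 81.1% of the tested miRs at 24 h had all IR arrays below all sham control arrays, and after scaling 16.98% had them all above. The scaled difference was 0.83 on the log2 scale, 1.78-fold (standard error 0.12, 95% interval 0.59 to 1.07, adjusted p = 2.16e-07 by limma), against a median of -0.13 over the 159 tested miRs, and 21 of them had a larger difference. The sign of this difference rests on the scaling, since without it the difference was -1.32 (adjusted p = 0.000265 by limma, a setting added after the data were seen).

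At 48 h the scaled log2 signal of rno-miR-146b ran from 4.61 through 5.37 to 5.57 in sham control and from 5.48 through 6.16 to 6.55 in IR. The groups overlapped by the lowest IR array, and the other 5 IR arrays exceeded the sham control maximum. The difference was 0.80, 1.74-fold (standard error 0.12, adjusted p = 8.36e-07 by limma), against a median of -0.15 over all tested miRs. The unscaled signals, 28.1 to 88.7 in sham control and 16.0 to 112 in IR, overlapped widely (exact two-sided permutation test of the means, p = 0.45, n = 6 per group). Without scaling the fitted difference was -0.40 (adjusted p = 0.264 by limma).

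At 7d the scaled log2 signal of rno-miR-146b ran from 5.14 through 5.29 to 5.47 in sham control and from 5.64 through 5.78 to 6.05 in IR, again without overlap and with IR above, as for 15.1% of the tested miRs. The difference was 0.50, 1.42-fold (standard error 0.12, 95% interval 0.26 to 0.75, adjusted p = 0.000399 by limma), against a median of -0.15 over all tested miRs. The unscaled signal was 82.99 ± 8.18 in sham control and 20.04 ± 4.26 in IR (SD, n = 6), 4.14-fold lower in IR and without overlap, as for 95.6% of the tested miRs, and without scaling the fitted difference was -2.08 (adjusted p = 6.12e-08 by limma). The 1 array without detection was in this IR group, with the lowest unscaled signal of all, 12.6 signal units. The 7d difference no longer passed the adjusted p with the 75th percentile over all 350 miRs (0.30, adjusted p = 0.0785 by limma), with quantile normalization (0.27, adjusted p = 0.116), with the slide as a fixed block (0.29, adjusted p = 0.14), with the brightness of the array as covariate (0.45, adjusted p = 0.0799) or in the authors' table (0.25, adjusted p = 0.15).

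At 0 h and 2 h the scaled groups of rno-miR-146b overlapped. The log2 signal at 0 h was 5.44 ± 0.10 in sham control and 5.44 ± 0.16 in IR (SD, n = 6), a difference of 0.00 with a 95% interval of -0.24 to 0.25 (adjusted p = 0.982 by limma). At 2 h it was 5.64 ± 0.15 in sham control and 5.38 ± 0.15 in IR (SD, n = 6), a difference of -0.26 (adjusted p = 0.329 by limma), and 4 of 6 IR arrays were lower than the sham control minimum. The change of the IR effect from 0 h to 7d was 0.50 (standard error 0.17, adjusted p = 0.0252 by limma), where 25.8% of tested miRs had an adjusted p of at most 0.05. This call was lost when IR 7d replicate 4, the array without detection, was left out, and also with the slide as a block, with brightness as covariate and in the authors' table. The change from 24 h to 7d was -0.32 with a 95% interval of -0.67 to 0.02 (adjusted p = 0.395 by limma), where 3.14% of tested miRs passed.

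Relative to the median miR the difference of rno-miR-146b at 24 h, 48 h and 7d kept its sign under each scaling and background correction run. The difference of rno-miR-146b minus the median difference of all fitted miRs at 24 h was 0.96 as reported, 0.94 with the 75th percentile over all miRs, 0.89 with quantile normalization, 0.81 in the authors' table, 0.72 with log2 signals averaged over probes, 0.71 without scaling and 0.23 with normexp background correction. The median itself moved from -2.03 without scaling to 0.88 with normexp. At 48 h the same quantity was 0.95 as reported, 0.87 without scaling and 0.27 with normexp, and at 7d 0.65, 0.42 and 0.23. For rno-miR-150 it did not keep its sign at 48 h, being -0.58 as reported, 0.08 without scaling and 0.36 with normexp. At 24 h it was -0.24, 0.93 and 0.37 for rno-miR-150. Without scaling and with normexp the dim rno-miR-150 thus also lay above the median, at 24 h by more than rno-miR-146b. The kept sign under these settings therefore does not set rno-miR-146b apart. Within the scans, the scaled difference of rno-miR-146b at 24 h was 0.84, 0.85 and 0.74 on scans 1, 2 and 3, at 48 h it was 1.22, 0.86 and 0.31, and at 7d 0.52, 0.61 and 0.39, with 1 to 3 arrays per group and scan.

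**Figure D2:**
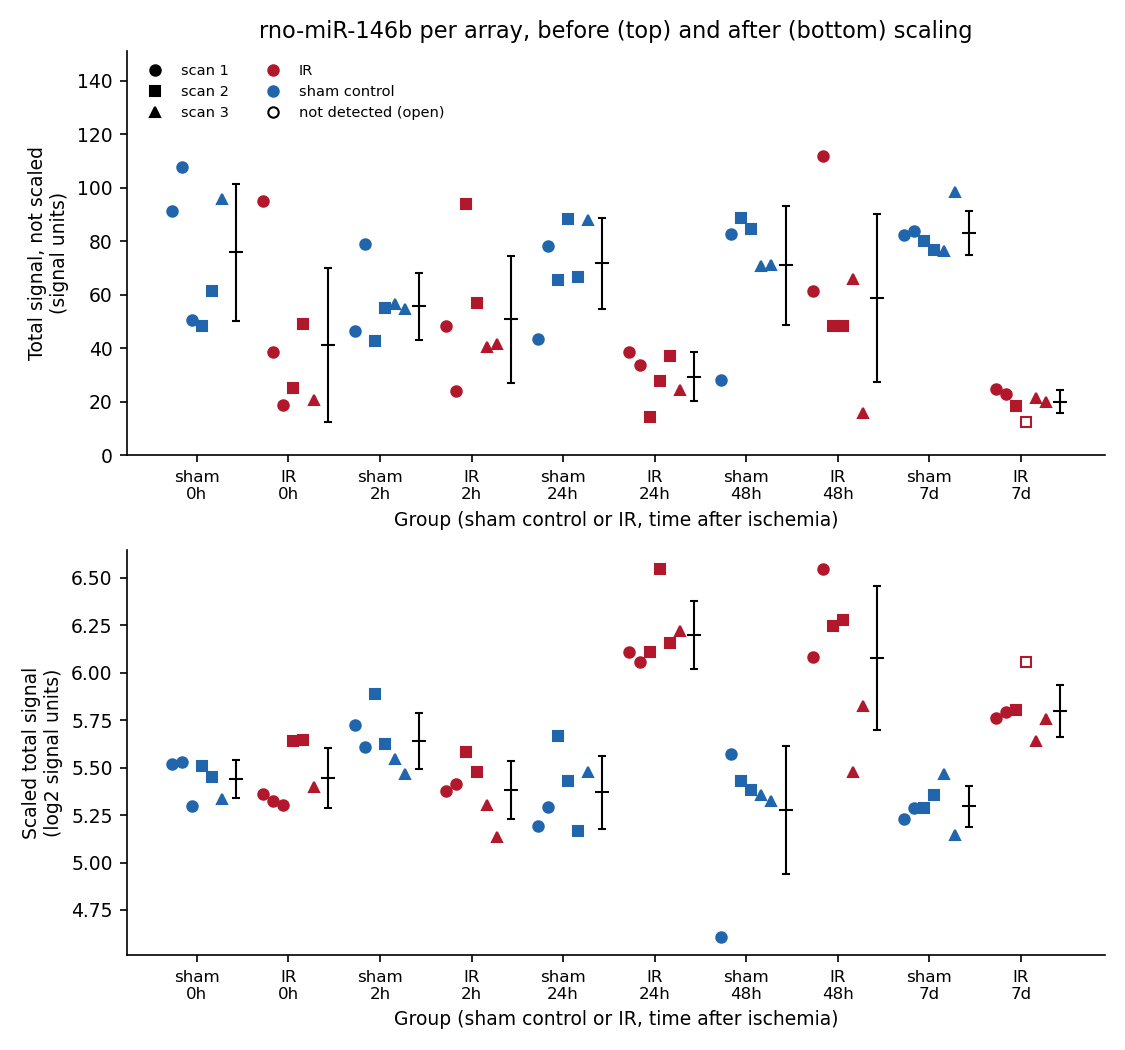
Total signal of rno-miR-146b on each of the 60 arrays before scaling (top, signal units) and after scaling (bottom, log2 signal units), by group on the horizontal axis, with symbols for the 3 scans, an open symbol for the array without detection, and the mean ± SD of each group in black. At 24 h and 7d the IR arrays are all lower than sham control at the top and all higher at the bottom, so the direction flips with the scaling.

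Ordered by the scaled mean, the IR groups at 24 h (6.20), 48 h (6.08) and 7d (5.80) came first among the 10 groups, followed by sham control at 2 h (5.64). The remaining 6 groups lay between 5.28 and 5.44. None of the 9 steps between neighbours in this order passed an exact two-sided permutation test after adjustment over the 9 steps (adjusted p from 0.38 to 0.955, n = 6 per group), so no neighbours were told apart beyond their spread. Ordered by the unscaled mean, the sham control groups at 7d (82.99 signal units), 0 h (75.8), 24 h (71.7) and 48 h (71.1) came first and the IR groups at 24 h (29.4) and 7d (20.04) last, and again none of the 9 steps passed (adjusted p from 0.468 to 0.961 by the exact test). The order of the groups thus turned with the scaling. Between the sham control groups, rno-miR-146b at 7d minus 0 h was -0.14 (adjusted p = 0.496 by limma), and limma called 0 of the 159 miRs there, with 22.01% of them at an unadjusted p under 0.05. The 2 probes of rno-miR-146b did not move alike. Probe 2, with a median signal of 41.8 signal units, gave scaled differences of 0.96, 0.90 and 0.61 at 24 h, 48 h and 7d, and probe 1, with a median of 9.35, gave 0.10, 0.43 and 0.06. Most spots of probe 1 were above background on 9 of 60 arrays, and those of probe 2 on 50.

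rno-miR-150, the lymphocyte miR, had a lower unscaled signal in IR at 24 h and 48 h (exact two-sided permutation test of the means, p = 0.00216 and 0.00649, n = 6 per group), times at which the brightness of the IR arrays as a whole was lower. Before scaling, 81.1% of the tested miRs at 24 h had all IR arrays below all sham control arrays. These tests therefore cannot tell a fall of rno-miR-150 from the lower brightness. rno-miR-150 was detected on 1 of the 18 IR arrays of 24 h, 48 h and 7d. At 7d the unscaled signal ran from 20.5 through 25.4 to 45.6 signal units on the sham control arrays, all of which detected it, and from -4.44 through -0.83 to 3.72 on the IR arrays, of which 0 did. It entered the test only through this sham control group, so a lower level elsewhere was built into the choice, and its 7d values are a description with no test. The scaled log2 signal was 3.68 ± 0.27 in sham control and 2.72 ± 0.20 in IR (SD, n = 6), without overlap and with IR below, as for 26.4% of tested miRs after scaling. The IR arrays were dim enough that the lowest log2 signal of any miR they detected averaged 4.86 (4.67 at 24 h), above the sham control level of rno-miR-150. A bound on the fold change from these detection limits was under 1, and no fold change is given.

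At 24 h the unscaled signal of rno-miR-150 ran from 9.69 through 16.9 to 29.7 signal units in sham control and from -0.95 through 3.48 to 4.81 in IR, with detection on 2 and 0 arrays. The groups thus did not overlap before scaling, as for most tested miRs, but the scaled log2 values, 3.28 ± 0.37 in sham control and 2.91 ± 0.27 in IR (SD, n = 6), overlapped and did not pass the test (adjusted p = 0.0853 by limma). At 48 h the scaled values were 3.52 ± 0.43 with detection on 4 arrays and 2.79 ± 0.21 with detection on 1 (SD, n = 6), a fitted difference of -0.73 (adjusted p = 0.0013 by limma). The unscaled means there were 21.2 and 5.42 signal units. At 0 h the scaled means were 3.46 and 3.03, detected on 3 and 1 arrays (adjusted p = 0.14 by limma), and at 2 h 3.59 and 3.29, detected on 3 arrays of each group (adjusted p = 0.551 by limma).

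The difference of rno-miR-150 depended on how dim signals were treated. With normexp background correction, which keeps every corrected signal above 0 and here added an offset of 50, it turned positive. At 48 h it was then 1.11 (adjusted p = 0.00796 by limma), where the median difference of all tested miRs was 0.75. Against this offset of 50, the median total signal of rno-miR-150 over the 60 arrays was 10.5 signal units. At 48 h it no longer passed the adjusted p with the slide as a fixed block (-0.44, adjusted p = 0.167 by limma), with the brightness of the array as covariate (-0.39, adjusted p = 0.117), with log2 signals averaged over probes (-0.23, adjusted p = 0.156) or with a floor at the highest detection limit (0). Other settings brought a pass where none was reported. At 24 h rno-miR-150 passed with the 75th percentile over all 350 miRs (adjusted p = 0.0015 by limma), with quantile normalization (7.34e-06), in the authors' table (0.0116), without scaling (0.0014), with the scan as a block (0.0415) and without sham control 24 h replicate 3 (0.0478), each with IR lower. At 0 h it passed with the first 4 of these (-0.67, -0.74, -1.04 and -0.94, adjusted p = 0.00173, 2.89e-05, 0.00726 and 0.00953 by limma). Within scans 1, 2 and 3 the difference at 48 h was -0.26, -0.89 and -1.03, with 2 arrays per group and scan. Of its 2 probes, 1 had a median signal of 0.24 signal units and the other a median of 10.1, so the second carried nearly all of the measurement.

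**Figure D3:**
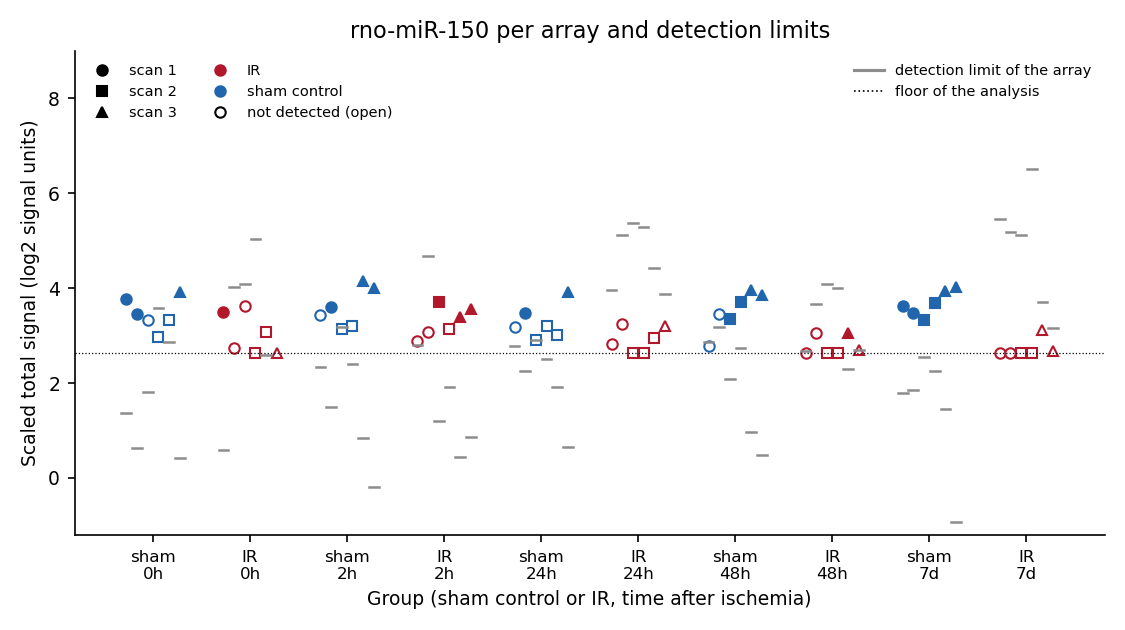
Scaled log2 signal of rno-miR-150 on each of the 60 arrays by group (horizontal axis), filled where the miR was detected and open where it was not, with symbols for the 3 scans. Grey bars are the lowest scaled signal of any detected miR on the same array (not drawn where it was not above 0), and the dotted line is the floor of 2.63. At 24 h and 7d the bars of most IR arrays lie above the mean level of rno-miR-150 in sham control. The sign of the difference reverses with normexp background correction, which adds an offset of 50.

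rno-miR-223, the myeloid miR, was detected by scan day. It was detected on all 16 arrays of scan 3, 8 IR and 8 sham control, and on 0 of the 44 arrays of scans 1 and 2, and it was the 1 miR of 350 with exactly this pattern. The unscaled signal ran from 25.6 through 29.9 to 34.9 signal units on scan 3, and from 4.96 through 12.0 to 32.1 on the other scans, where 1 array reached the lowest value of scan 3. The ratio of these medians was 2.496. Over the 57 miRs detected on all arrays, the median difference between scan 3 and the other scans was 0.20 on the log2 scale against 1.32 for rno-miR-223, and 0 of the 57 had a larger one. Both probes of rno-miR-223 showed it, with medians of 15.0 and 14.9 on scan 3 and 5.67 and 6.22 on the others. Each scan held 3 slides of its own, so scan and slide cannot be told apart here.

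Within scan 3, where rno-miR-223 was detected, the unscaled signal was 29.1 ± 2.11 in sham control and 30.9 ± 2.00 in IR (SD, n = 8), a difference of 1.78 with a 95% interval of -0.42 to 3.98 (exact two-sided permutation test, p = 0.105). Its highest unscaled signal on scan 3 was 1.36 times its lowest, while the brightness of the same 16 arrays ranged over 9.88-fold. The unscaled signal of rno-miR-146b on these arrays ranged over 6.16-fold. On scans 1 and 2 the unscaled signal of rno-miR-223, not detected there, was 10.7 ± 2.62 in sham control and 14.2 ± 5.35 in IR (SD, n = 22, permutation test with 100000 resamples, two-sided, p = 0.00322, adjusted p = 0.00429 over 4 comparisons). Both comparisons pooled the 5 time points. On scan 3 all IR arrays lay on slide 7 and all sham control arrays on slides 8 and 9. Treatment and slide thus cannot be told apart there. On scans 1 and 2, as elsewhere, no slide held both treatments of the same time point.

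After scaling, rno-miR-223 was higher in IR. The scaled log2 signal ran from 2.63 through 2.78 to 3.99 in sham control and from 4.57 through 5.18 to 6.73 in IR at 24 h, and from 2.63 through 2.71 to 4.01 and from 4.49 through 5.38 to 6.40 at 7d. The groups did not overlap at 24 h, 48 h and 7d, with IR above and with differences of 2.42, 1.70 and 2.43 (exact two-sided permutation test, p = 0.00216 at each, the smallest that 6 arrays against 6 allow). Of the 159 tested miRs, 16.98% at 24 h and 15.1% at 7d also had all IR arrays above all sham control arrays. That share is not given for 48 h. rno-miR-223 was not among the 159 tested miRs, and when all 350 miRs were fitted without a filter it was called at 24 h, 48 h and 7d (adjusted p = 1.68e-05, 0.00184 and 1.47e-05 by limma), where 12.9%, 9.14% and 12.0% of the 350 were called. At 0 h and 2 h the scaled differences were 1.02 and 0.38 (exact test, p = 0.0801 and 0.444, n = 6 per group). Detection was equal in both treatments at every time point, on 1 or 2 arrays per group.

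The unscaled means of rno-miR-223 were 13.03 ± 9.38 and 17.2 ± 8.68 signal units in sham control and IR at 24 h, 17.3 ± 7.31 and 24.4 ± 8.18 at 48 h, and 17.1 ± 10.1 and 17.5 ± 9.77 at 7d, and did not pass a test over all 6 arrays of each group (SD, n = 6, exact two-sided permutation test, p = 0.448, 0.126 and 0.892). Much of that spread lay between scans. On scans 1, 2 and 3 the unscaled means at 24 h were 10.9, 8.36 and 31.4 in sham control and 13.3, 13.9 and 34.9 in IR, so that IR was the higher on each. At 48 h they were 12.0, 13.2 and 26.6 in sham control and 24.9, 17.9 and 30.3 in IR, again higher in IR on each, whereas at 7d they were 9.94, 11.5 and 29.9 against 12.1, 10.6 and 29.9. A permutation of treatment within scans, added after the data were seen, gave exact two-sided p of 0.025, 0.0278 and 0.796 at these 3 times, or 0.0694, 0.0694 and 0.796 after adjustment over all 5 time points. It cannot separate treatment from slide, since no slide held both treatments of the same time point. Without scaling the log2 differences were 0.44, 0.51 and 0.05. The scaled difference at 24 h and 7d lay near the difference in the scaling factors themselves, 2.15 and 2.58 on the log2 scale, whereas at 48 h it was 1.70 against 1.19. Within the scans the scaled difference at 24 h was 1.87, 2.69 and 2.74 on scans 1, 2 and 3, and at 7d 2.14, 2.68 and 2.46. With a floor at the highest detection limit it was 0.04 at 24 h and 0 at 7d.

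**Figure D4:**
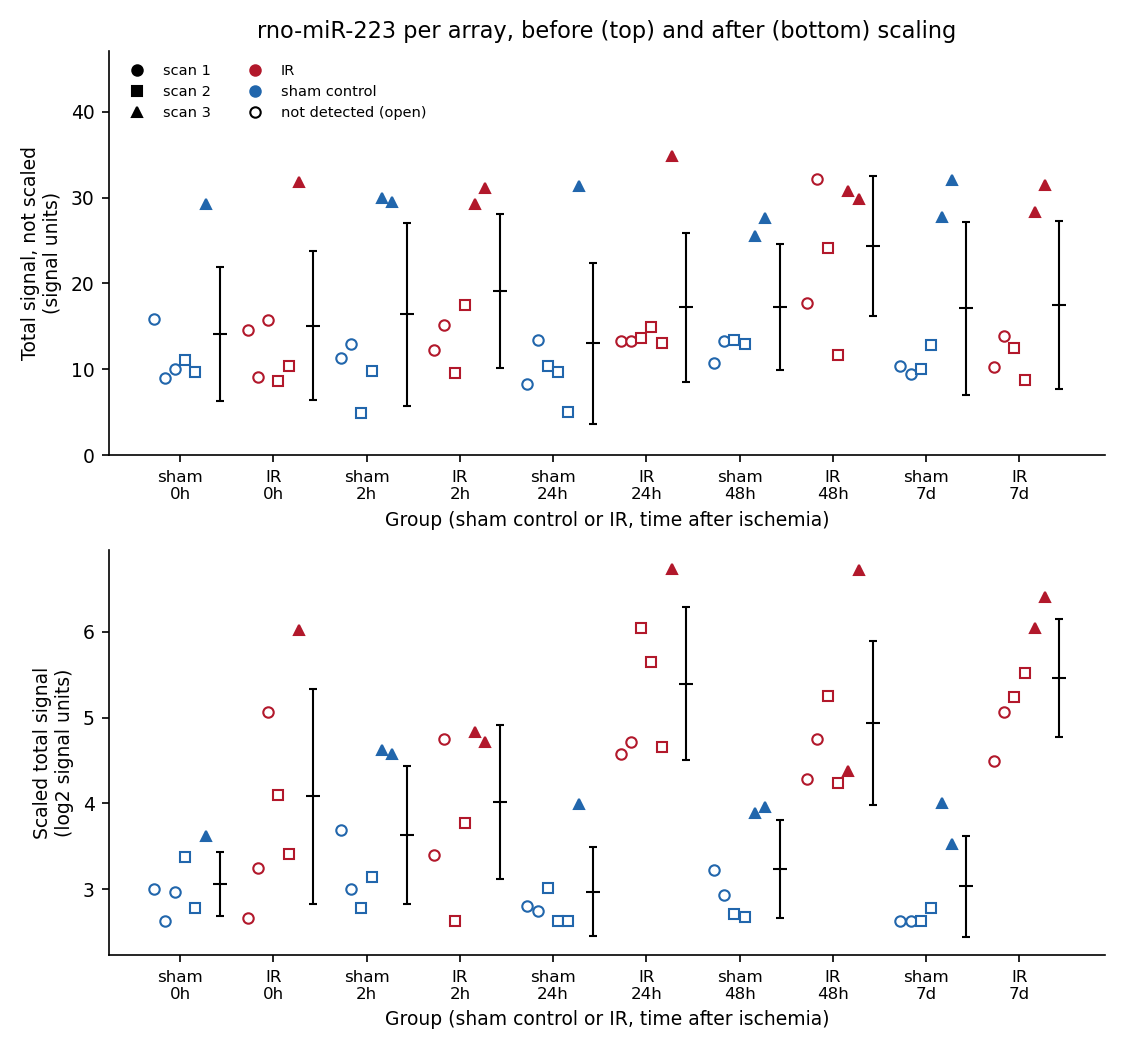
Total signal of rno-miR-223 on each of the 60 arrays before scaling (top, signal units) and after scaling (bottom, log2 signal units), by group, filled where detected and open where not, with symbols for the 3 scans and the mean ± SD of each group in black. At the top the 16 arrays of scan 3 (triangles) lie between 25.6 and 34.9 signal units in both treatments, and at the bottom all IR arrays at 24 h, 48 h and 7d lie above the sham control arrays, a difference that shrinks to 0.44, 0.51 and 0.05 without scaling.

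The remaining 3 members were not well above background. rno-miR-142-3p had unscaled signals from -3.30 to 9.51 signal units with a median of 2.93, and rno-miR-142-5p from -10.4 to 0.62 with a median of -4.04, and neither was detected on any array. rno-miR-146a, the seed partner of rno-miR-146b, had signals from -5.69 to 7.20 with a median of -1.24, and the 1 array that detected it was sham control 7d replicate 6. Its probes were above background in most spots on 0 arrays. After scaling and the floor, rno-miR-142-5p and rno-miR-146a had the floor value on every array. Before scaling, the signal of rno-miR-146a was lower in IR at 24 h, -3.08 ± 2.10 signal units against 1.01 ± 3.16 in sham control, and at 7d, -1.499 ± 1.75 against 1.68 ± 3.08 (SD, n = 6, exact two-sided permutation test, p = 0.0325 and 0.0368, unadjusted and out of 30 such comparisons of the 6 members). On scan 3 the signal of rno-miR-146a ran from -5.64 to -0.91 on the IR arrays and from 0.70 to 7.20 on sham control arrays. That of rno-miR-142-5p ran from -9.23 to -5.88 and from -2.88 to -0.91, also without overlap. On scans 1 and 2 the treatments overlapped for both miRs. The IR arrays of scan 3 shared no slide with its sham control arrays, so treatment and slide cannot be told apart in these separations. How common such a separation was among all miRs of the array is not given. The values compared here were, with the 1 exception above, not detected, so they are no levels of the miRs.

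Among the tested miRs that were not members, those whose 10 group means followed rno-miR-146b most closely were rno-miR-21 (Pearson r = 0.92), rno-miR-20a (r = 0.91) and rno-miR-92a (r = 0.87). Those nearest to rno-miR-150 were rno-miR-379 (r = 0.97), rno-miR-543* (r = 0.97) and rno-miR-129* (r = 0.96). These are descriptions over 10 groups whose arrays share the scaling. After removal of the group means, rno-miR-146b and rno-miR-150 showed no correlation past the test over the 60 arrays (Pearson r = -0.05, Spearman rho = -0.17, permutation within groups, p = 0.751 and 0.224), nor without the 2 arrays farthest from the median of rno-miR-146b (r = -0.06) or with the scaling factor regressed out (r = -0.02). Within the scans their r was 0.57, -0.10 and -0.67 on scans 1, 2 and 3, over 22, 22 and 16 arrays. No r over all arrays is given for rno-miR-223, whose arrays fell into separate clusters by scan.

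Other miRs of the same fields were counted as a frame. Of 10 miRs linked to Toll-like receptor and cytokine signalling, 7 were tested, and rno-miR-21, a miR known to rise in many injured tissues, was called higher in IR at 24 h, 48 h and 7d. The log2 signal of rno-miR-21 was 8.50 ± 0.19 in sham control and 10.7 ± 0.17 in IR at 24 h (SD, n = 6, adjusted p = 2.13e-16 by limma). At 24 h the median difference of the 7 was 0.00, against -0.13 over all tested miRs. On the adjusted p alone 1 was higher and 3 were lower, where 60.4% of all tested miRs passed and 24.5% were higher. The lower ones were rno-miR-9 (-0.37), rno-miR-125b-5p (-0.42) and rno-miR-181a (-0.30). At 48 h 1 was higher and 3 were lower (median -0.10), beside 19.5% and 35.2% of all tested miRs. At 7d 2 were higher and 3 lower (median -0.23, against -0.15 over all tested miRs), beside 20.1% and 39.6%. rno-miR-147, rno-miR-187 and rno-miR-203 of this list were detected on 0 arrays. Of 5 miRs abundant in leukocytes (miR-23a, miR-24, miR-27a, miR-191 and miR-342-3p), 4 were tested and 0 were called at any time point. Their median difference was 0.05 at 24 h, 0.13 at 48 h and 0.15 at 7d. On the adjusted p alone 1, 1 and 2 of the 4 were higher at these times, against 24.5%, 19.5% and 20.1% of all tested miRs. The one at 48 h was rno-miR-27a with 0.87 (adjusted p = 7.72e-08 by limma), while rno-miR-342-3p was lower with -0.27 (adjusted p = 0.000567).

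Markers of other cell types were set beside these results. Of the red cell miRs, rno-miR-451 was detected on 1 of 60 arrays and rno-miR-144 on 0, and miR-486 was not found among the array entries. Their summed scaled signal was at the floor, 12.4 signal units, on every array. Of the muscle miRs, rno-miR-206 was called higher in IR at all 5 time points, by 2.04, 2.33, 1.91, 1.96 and 1.34 on the log2 scale (adjusted p from 8e-05 to 0.00577 by limma), while rno-miR-133a was detected on 0 arrays, rno-miR-133b on 7 and rno-miR-1 on 11. The summed scaled signal of the 4 muscle miRs ran from 57.7 to 81.3 signal units in sham control and from 151 to 292 in IR at 24 h, and from 56.1 to 84.9 and from 114 to 178 at 7d. At 2 h it ran from 44.7 to 81.9 and from 90.8 to 556. The groups overlapped at 0 h (24.8 to 172 and 140 to 398) and at 48 h (62.9 to 233 and 216 to 637). Of the pigment epithelium miRs, 3 of 3 were tested and rno-miR-184 was called lower at 7d, with sums from 1751 to 2623 signal units in sham control and from 1553 to 1951 in IR. All 7d IR arrays held rno-miR-184 at the floor of 2.63, against 5.97 ± 1.97 in sham control (SD, n = 6). It was detected on 33 of 60 arrays. The lowest log2 signal of any miR detected on the 7d IR arrays averaged 4.86, so the size of this difference is not known. Of the photoreceptor and neuron markers 6 of 6 were tested and 0 were called at any time point, and rno-miR-124 of neurons and rno-miR-183 of photoreceptors were detected on all 60 arrays. On the adjusted p alone some passed. rno-miR-128 of neurons was lower in IR, with differences of -0.44, -0.33 and -0.78 at 24 h, 48 h and 7d (adjusted p = 0.00924, 0.0491 and 1.17e-05 by limma), and so was rno-miR-9* with -0.26 at 24 h (adjusted p = 0.0432). Of the photoreceptor miRs, rno-miR-183 was higher by 0.40, 0.25 and 0.31 at the same 3 times (adjusted p = 0.000245, 0.0203 and 0.00251 by limma), and rno-miR-182 was lower at 48 h (-0.38, adjusted p = 0.00132). rno-miR-126 of the endothelium fell by 0.52 at 24 h (adjusted p = 0.00496 by limma), where the sum of its list ran from 35.5 to 44.4 in sham control and from 17.4 to 39.8 in IR, and its partner rno-miR-126* was detected on 0 arrays. The part of muscle, pigment epithelium, endothelium, neurons or photoreceptors in the differences of rno-miR-146b, rno-miR-150 and rno-miR-223 was not tested.

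**Figure D5:**
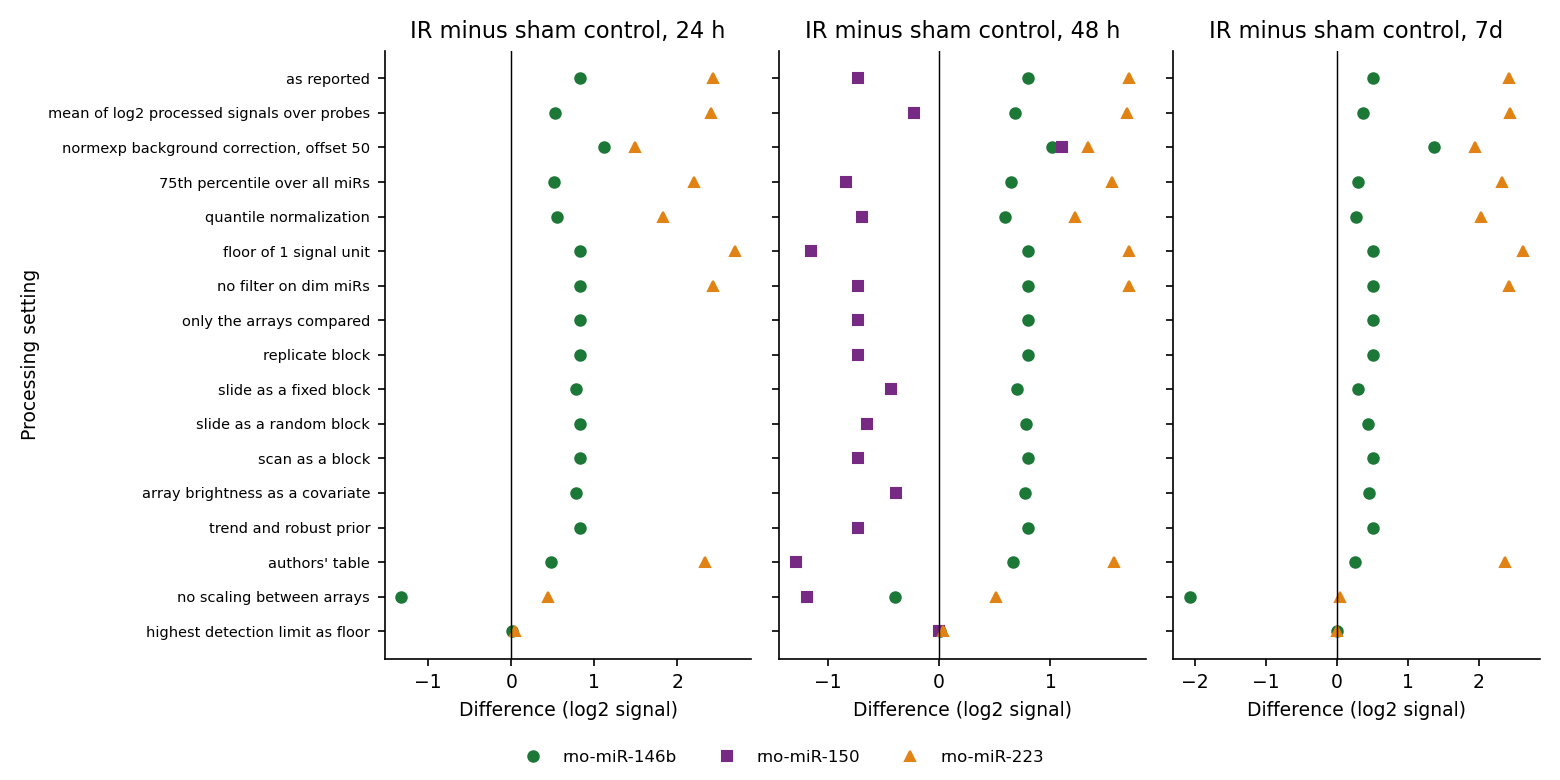
Log2 difference IR minus sham control of rno-miR-146b and rno-miR-223 at 24 h (left), 48 h (middle) and 7d (right), and of rno-miR-150 at 48 h, under each processing setting (vertical axis), with a line at 0. The difference of rno-miR-146b is above 0 under all settings drawn other than no scaling between arrays, where it is -1.32, -0.40 and -2.08, and a floor at the highest detection limit, where it is 0.01, 0.01 and 0. That of rno-miR-150 at 48 h is -0.73 as reported and turns to 1.11 with normexp (offset 50), where the median over all tested miRs is 0.75.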

How the data were processed

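Whole-retina miRs were measured on 60 single-color arrays (Cy3, 100 ng of total RNA, RIN above 8). Per the file headers, the authors extracted each array with Agilent Feature Extraction 9.5.3.1, which subtracted background and a spatial trend, so the deposited intensities are not normalized between arrays. A processed table by the authors holds log2 values of 219 features, of which 210 matched rat miRs by name and 3 were members. Each value equaled the log2 total signal (at least 1 unit) less 1 constant per array. It served as an alternative.

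Arrays were brought to 1 common 75th percentile, taken over the 57 miRs with detection throughout, floored and fitted together in limma 3.58.1 (R 4.3.3) with 10 groups, each array being 1 rat. Python 3.11.15 with scipy 1.17.1, numpy 2.4.6, matplotlib 3.10.9 and pandas 2.3.3 gave percentiles, exact tests and plots. The members, lists and markers were chosen with earlier results of these data known. All members were named, and other miRs by list or by the 3 nearest group-mean patterns. On simulated data the fit recovered known changes in miRs well above the floor and not used for scaling. These changes were larger than the reported differences of the tested members, and recovery of smaller ones was not simulated. Changed miRs among those used for scaling moved all differences, in some draws by more than the 7d difference of rno-miR-146b. That touches calls made on the adjusted p alone. No pair of arrays held identical signals. Alternatives were other background corrections, scalings, floors, filters, blocks, tests and thresholds, and each array left out in turn.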

Additional observations from a re-analysis of the deposited data

Results flagged for a closer look

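Among 30 groups of 6 arrays checked for rno-miR-146b, rno-miR-150 and rno-miR-223, 4 held 1 array whose gap to the nearest other exceeded 0.625 of the group's range. For normally distributed values chance gives this in about 1 group in 20. That rate does not hold for rno-miR-150 values at the floor or for rno-miR-223 groups that mix scans. For rno-miR-146b, IR 24 h replicate 4 had the highest scaled log2 signal, 6.55, against 6.06 to 6.22 on the other 5 arrays. Also for rno-miR-146b, sham control 48 h replicate 1 had the lowest, 4.61, against 5.32 to 5.57. For rno-miR-150, IR 7d replicate 5 lay at 3.12 with no detection, against 2.63 to 2.67 on the others. For rno-miR-223, sham control 24 h replicate 6, the 1 array of that group on scan 3 and the 1 that detected it, lay at 3.99 against 2.63 to 3.01.

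The IR effect of rno-miR-146b differed between 7d and 0 h by 0.50 on the log2 scale (adjusted p = 0.0252 by limma).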

How the results depend on the processing

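The count of called members was 0 at every time point as reported. With normexp background correction it was 2 at each of 24 h, 48 h and 7d, where 40.9%, 30.2% and 60.4% of all fitted miRs were called. Without scaling, a setting chosen after seeing the data, it was 1 at 0 h, 2 at 24 h, 1 at 48 h and 2 at 7d, beside 49.7%, 85.5%, 74.8% and 93.7% of all. In the authors' table it was 1 at 0 h, 1 at 24 h, 2 at 48 h and 2 at 7d, beside 11.9%, 32.4%, 22.9% and 33.3% of 210. Without a filter on dim miRs it was 1 at 24 h, 48 h and 7d (rno-miR-223), with a floor of 1 signal unit 1 at 48 h and 7d (rno-miR-150, beside 21.4% and 27.04% of all), and with the 75th percentile over all miRs 1 at 7d (rno-miR-150, beside 23.3%). On the adjusted p alone it was 1 at 24 h, 2 at 48 h and 2 at 7d. Leaving out 1 array at a time gave 0 to 1 at 7d, where rno-miR-150 was called without IR 7d replicate 4, IR 7d replicate 5 or sham control 7d replicate 3. Since rno-miR-150 entered the test only through the sham control arrays of 7d, nothing is read from its 7d values in any of these counts. The number of members whose IR effect differed between 0 h and 7d was 1 as reported (rno-miR-146b), 2 with a floor of 1 signal unit, and 0 with log2 signals averaged over probes, normexp, a floor at the highest detection limit, the slide as a fixed or random block, brightness as covariate or the authors' table. With only miRs detected on all arrays it was also 0, but 0 members were then fitted, so it says nothing of them. Leaving out 1 array gave 0 to 1, with 0 without IR 7d replicate 4.

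These differences changed sign. For rno-miR-146b at 0 h, reported as 0.00, they were -0.032 with log2 signals averaged over probes, -0.32 with the 75th percentile over all miRs, -0.38 with quantile normalization, -0.019 with brightness as covariate, -0.30 in the authors' table, -1.06 without scaling, -0.0068 within scans 1 and 2, and from -0.036 to 0.033 with 1 array left out. At 2 h rno-miR-146b was 0.066 with normexp. Without scaling it was -1.32, -0.40 and -2.08 at 24 h, 48 h and 7d. For rno-miR-150 normexp gave 0.99, 0.10, 1.26, 1.11 and 1.60 at the 5 times, beside medians of 0.66, 0.08, 0.88, 0.75 and 1.14 over all tested miRs. Brightness as covariate gave 0.25 at 24 h for rno-miR-150. The cause was not tested. For rno-miR-146b the call on the adjusted p held in each run with 1 array left out at 24 h (0.76 to 0.89), 48 h (0.66 to 0.92) and 7d (0.44 to 0.54). A floor at the highest detection limit left 0.01 at 24 h and 48 h and 0 at 7d.

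Same-numbered IR and sham control arrays of a time point shared a scan. Beyond the scan the numbers were not taken as a pairing, since same-numbered arrays correlated from -0.45 to 0.60. Of the 30 IR arrays, 7 correlated best with their own number. With the replicate block rno-miR-146b remained at 0.83 at 24 h (adjusted p = 5.86e-08 by limma), and the block moved no count of called members.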
